A study of Mus musculus with 20 samples.

Results

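Krt7, Krt23, Clu and S100a6 are 4 genes associated with the fetal-like, injury-induced state of the intestinal epithelium, and they were taken by symbol from the 46329 gene rows of the series. All 4 rows were present in the 20 libraries, and all 4 were among the 7119 rows with enough counts to be tested. The libraries came from C57BL/6J mice aged 100 days with the ApcMin allele, on which intestinal tumors form, and a floxed Erbb2 gene (Erbb2 f/f). Erbb2-deficient mice (ApcMin/+, Erbb2 f/f, Tg(Vil1-cre)) also carried cre under the Villin promoter, which is active in intestinal epithelial cells and so leaves Erbb2 intact in other cells. Control mice (ApcMin/+, Erbb2 f/f) were littermates without cre, so the genotypes differed both by recombination and by the cre transgene. The 4 groups were Erbb2-deficient tumors, control tumors, Erbb2-deficient adjacent tissue and control adjacent tissue, with 5 libraries each. The study asked what ERBB2, a growth factor receptor kinase related to EGFR, contributes to colorectal cancer in this model.

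After injury, the adult intestinal epithelium can pass through a regenerative state in which genes of the fetal epithelium are expressed again and markers of the resting crypt stem cell are reduced. This state is linked to the transcriptional regulator YAP and its DNA-binding partners of the TEAD family, and a similar program has been described in intestinal tumors. Krt7 (type II) and Krt23 (type I) encode keratins, the intermediate filament proteins of epithelial cells. Clu encodes clusterin, a secreted chaperone that marks revival stem cells in the injured mouse intestine. S100a6 encodes a small calcium-binding protein of the S100 family.

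The promoters of the keratins, whose rows were higher in tumors, are shown beside that of S100a6, whose row did not pass between tumors and adjacent tissue in either genotype. Each is the 250 bases before the RefSeq start of the gene in GRCm38.p6, on the strand of the gene, with CpG dinucleotides in capitals. They lie at chr15:101412153-101412402 (plus strand) for Krt7, chr11:99493121-99493370 (minus strand) for Krt23 and chr3:90612644-90612893 (plus strand) for S100a6.
Krt7: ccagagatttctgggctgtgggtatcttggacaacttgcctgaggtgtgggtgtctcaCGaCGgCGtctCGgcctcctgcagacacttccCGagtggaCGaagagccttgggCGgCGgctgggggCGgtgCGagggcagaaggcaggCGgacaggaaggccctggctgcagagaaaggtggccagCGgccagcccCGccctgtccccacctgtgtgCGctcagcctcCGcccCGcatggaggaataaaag
Krt23: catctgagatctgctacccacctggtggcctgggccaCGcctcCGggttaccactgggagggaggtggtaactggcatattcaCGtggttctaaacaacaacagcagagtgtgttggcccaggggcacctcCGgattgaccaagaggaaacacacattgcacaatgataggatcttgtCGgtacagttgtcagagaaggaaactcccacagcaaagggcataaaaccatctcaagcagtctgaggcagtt
S100a6: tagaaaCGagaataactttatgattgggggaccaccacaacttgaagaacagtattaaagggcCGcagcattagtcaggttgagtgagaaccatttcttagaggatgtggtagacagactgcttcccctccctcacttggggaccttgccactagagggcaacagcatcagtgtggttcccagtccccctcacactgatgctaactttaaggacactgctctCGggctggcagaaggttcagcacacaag
The Krt7 window held 16 CpG dinucleotides at 66.0% G and C, and the Krt23 and S100a6 windows 5 at 52.8% and 3 at 50%. Over 32851 RefSeq mouse promoters the median window held 6 CpG dinucleotides at 52.4% G and C, and 25.4% of them held at least 16. A TEAD motif (GGAATG), an AP-1 motif (TGANTCA), a TCF/LEF motif (CTTTGA) and a TATA box (TATAAA), searched on both strands, matched nowhere in the 3 windows. These motifs occurred in 12.6%, 6.75%, 13.8% and 12.4% of all windows. A TCF/LEF match can end in the TGA that opens an AP-1 match, and a TATA box match can overlap its own reverse complement. The start of Gm671, a gene on the opposite strand, lies 92 bases before that of Krt7, inside the Krt7 window.

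The libraries held 1071737 to 1944309 counts on gene rows (median 1258396), which were 2.51% to 3.45% of the reads in a file. The ND6 row held 22599 to 199495 counts, more than the other 12 mitochondrial protein rows together (884 to 5698) in all 20 libraries, although ND6 alone is encoded on its strand. Such counts would arise from stranded reads assigned to the opposite strand, so a symbol here names a row of the files and not a measured transcript. Among the 4 genes, Krt7 had an exon overlapping in position an exon of a gene on the opposite strand (Gm671) in GENCODE M21. Krt87 lay opposite Krt7 or within 1000 bases of it. No gene lay opposite Krt23, Clu or S100a6 in that annotation. With the RefSeq start of Krt7, which lies 92 bases after that of Gm671, Krt7 and Gm671 would not overlap. The rows had low counts, with means of 14.7 for Krt7, 7.20 for Krt23, 14.2 for Clu and 24.0 for S100a6, so the counting error of a single library is large. The row of Erbb2 itself was at 1 to 22 counts in a library, or 4.44 ± 2.87 CPM in Erbb2-deficient tumors, 4.31 ± 2.30 CPM in control tumors, 10.5 ± 5.19 CPM in Erbb2-deficient adjacent tissue and 6.97 ± 3.96 CPM in control adjacent tissue (SD, n = 5 each), and did not check the genotype labels.

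Control tumor 2 stood apart from the other libraries. Within groups, the median rank correlation of a library with the rest of its group was 0.636 for control tumor 2 and at least 0.820 for the other 19. The summed level of 15 pan-epithelial marker rows was 17.2 CPM in control tumor 2, with 13 of the 15 rows at 0, against 324 to 648 CPM in the other control tumors. The summed level of 17 lymphocyte and follicle marker rows was 1175 CPM in control tumor 2, against 514 to 647 CPM in the other control tumors. Control tumor 2 had 0 counts in the Krt7, Krt23 and S100a6 rows and 30 counts in the Clu row. It was kept in the tests, and values without it are given beside some, but not all, of the results that it touches. Control tumor 3 was the control tumor nearest to adjacent tissue in its markers. The summed level of 12 goblet cell rows was 630 CPM in control tumor 3, against 2.72 to 57.2 CPM in the other control tumors, and that of 15 smooth muscle rows was 572 CPM, against 172 to 267 CPM. Without control tumor 3 the tumor log2 fold changes in control mice were 2.71 ± 0.70 SE for Krt7 (edgeR adjusted p = 0.00673), 3.73 ± 0.99 SE for Krt23 (edgeR adjusted p = 0.00835), 2.67 ± 0.78 SE for Clu (edgeR adjusted p = 0.0142) and -0.21 ± 0.65 SE for S100a6 (edgeR adjusted p = 0.845). In bulk tissue, fewer cells of a type and less RNA per cell cannot be told apart. Levels are CPM, the counts scaled to a common library size over tested rows with TMM factors, and gene differences were tested with edgeR's quasi-likelihood test at a Benjamini-Hochberg adjusted p under 0.05 over all 7119 rows.

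The comparisons of tumors with adjacent tissue asked which rows differ between tumor and adjacent epithelium in each genotype. The keratin rows Krt7 and Krt23 were higher in tumors of both genotypes, Clu was higher in tumors of control mice by a call that many alternatives lost, and S100a6 passed in neither genotype. Over all rows, 13% were called higher in Erbb2-deficient tumors and 10.7% in control tumors. The median log2 fold change of the 4 rows was 1.57 in Erbb2-deficient mice and 2.49 in control mice, against -0.06 and 0.07 over all rows tested. The filter on low counts required 7.95 CPM in at least 5 libraries, which Krt7 met in 9 libraries and Krt23 in 5, all of them tumors. Clu met it in 10 libraries, of which 8 were tumors, and S100a6 in 14, of which 7 were tumors. Krt7 and Krt23 therefore entered the table through the tissue in which they were higher, so the count called among the 4 and their median are descriptions that the filter and the choice of members push upward, and nothing is read from them.

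**Figure D1:**
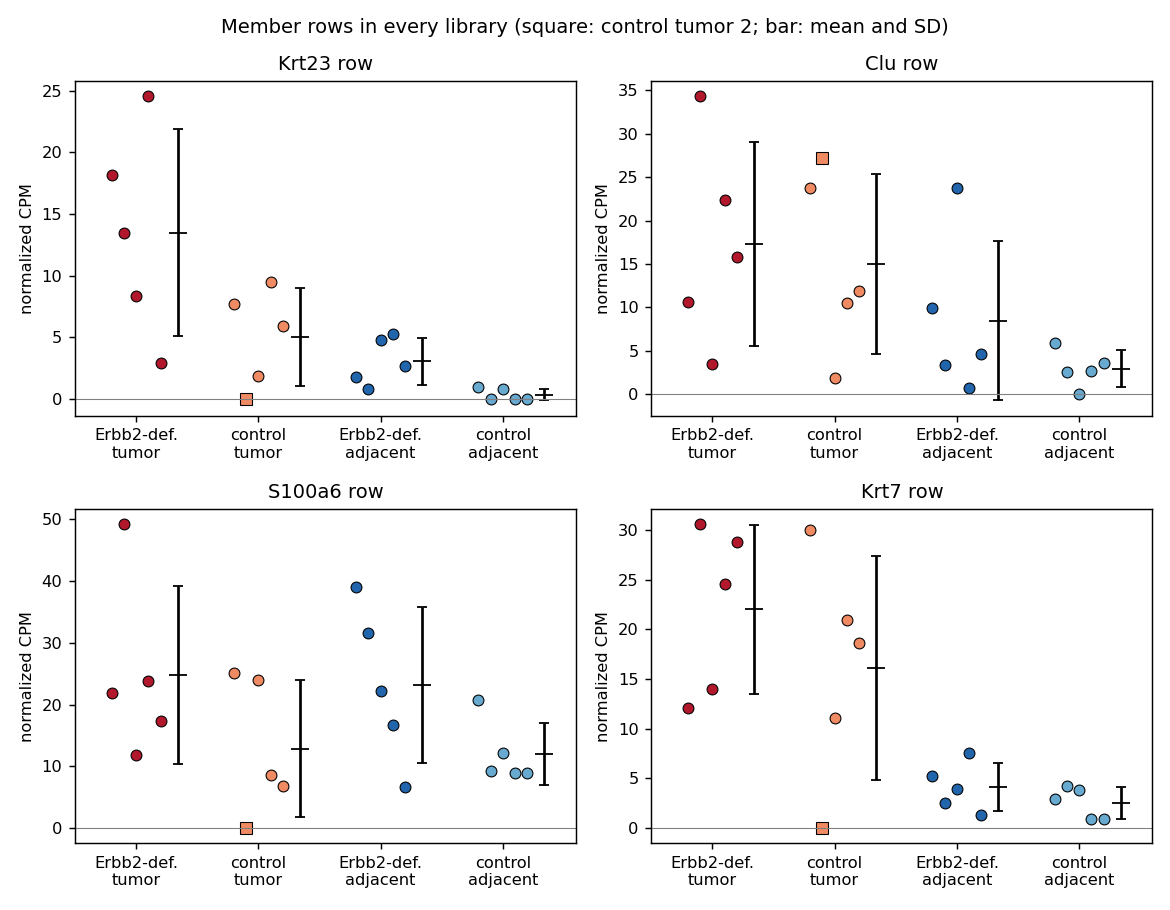
Normalized CPM of the Krt23, Clu, S100a6 and Krt7 rows (vertical axes) in each of the 20 libraries by group, with the mean and SD beside the points and control tumor 2 drawn as a square. All 5 Erbb2-deficient tumors lie above all adjacent libraries in the Krt7 panel, whereas the S100a6 panel shows overlap of tumors and adjacent tissue in both genotypes.

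The Krt7 row was the most clearly raised of the 4. In Erbb2-deficient tumors 1 to 5 it stood at 12.1, 30.6, 13.97, 24.6 and 28.8 CPM (16, 41, 20, 33 and 40 counts), against 5.24, 2.49, 3.97, 7.57 and 1.32 CPM (9, 3, 5, 10 and 2 counts) in Erbb2-deficient adjacent tissue. Every Erbb2-deficient tumor was above every Erbb2-deficient adjacent library, as was the case for 11.9% of all rows tested. In control tumors 1 to 5 it stood at 30.0, 0, 11.04, 20.9 and 18.6 CPM (43, 0, 12, 22 and 22 counts), against 2.96, 4.20, 3.82, 0.896 and 0.890 CPM (3, 5, 5, 1 and 1 counts) in control adjacent tissue. All control tumors except control tumor 2 were above all control adjacent libraries. The log2 fold change was 2.39 ± 0.62 SE in Erbb2-deficient mice (edgeR adjusted p = 0.00720, higher in 5 of 5 tumors than in any adjacent library) and 2.61 ± 0.68 SE in control mice (edgeR adjusted p = 0.00977, higher in 4 of 5). Without control tumor 2 these were 2.41 ± 0.43 SE (edgeR adjusted p = 0.000210) and 2.91 ± 0.49 SE (edgeR adjusted p = 0.000207). With no count filter the Krt7 row was called in Erbb2-deficient mice (edgeR adjusted p = 0.00112) and in control mice (edgeR adjusted p = 0.00181).

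By mean level the groups ran from Erbb2-deficient tumors (22.0 ± 8.51 CPM) through control tumors (16.1 ± 11.3 CPM, or 20.2 ± 7.82 CPM without control tumor 2) and Erbb2-deficient adjacent tissue (4.12 ± 2.43 CPM) to control adjacent tissue (2.55 ± 1.58 CPM; SD, n = 5 each). Neighbours in this order that share a tissue overlapped and did not pass the genotype test. The call in Erbb2-deficient mice held in 30 of 30 alternatives (edgeR or DESeq2 adjusted p of 7.93e-05 to 0.0264), and that in control mice in 28 of 29 (5.60e-05 to 0.0614).

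The rows opposite Krt7 were looked up after the Krt7 values had been seen. The Gm671 row averaged 12.9 ± 5.07 CPM in Erbb2-deficient tumors and 2.03 ± 2.09 CPM in Erbb2-deficient adjacent tissue (SD, n = 5 each). It averaged 10.1 ± 8.38 CPM in control tumors and 1.58 ± 0.757 CPM in control adjacent tissue (SD, n = 5 each). Its log2 fold change was 2.62 ± 0.68 SE in Erbb2-deficient mice (edgeR adjusted p = 0.00694) and 2.62 ± 0.74 SE in control mice (edgeR adjusted p = 0.0156), close in size to that of Krt7. The call in control mice was lost without control tumor 5 (edgeR adjusted p = 0.0538). The row of the keratin Krt87 averaged 32.3 ± 15.7 CPM in Erbb2-deficient tumors and 7.58 ± 3.78 CPM in Erbb2-deficient adjacent tissue (SD, n = 5 each), which was 2.08 ± 0.61 SE on the log2 scale (edgeR adjusted p = 0.0152). In control mice Krt87 stood at 22.1 ± 14.1 CPM in tumors and 8.97 ± 4.11 CPM in adjacent tissue (SD, n = 5 each), and did not pass (log2 fold change 1.30 ± 0.61 SE, edgeR adjusted p = 0.135). Both rows were at 0 counts in control tumor 2. All 3 rows at this locus were thus higher in Erbb2-deficient tumors. Where the annotations of Krt7 and Gm671 overlap, reads of the 2 genes within either row cannot be told apart. Among Erbb2-deficient tumors, numbers 1 and 3 had the lowest Krt7 levels and the highest Gm671 levels (17.4 and 17.5 CPM) and Krt87 levels (40.8 and 51.7 CPM) of their group.

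**Figure D2:**
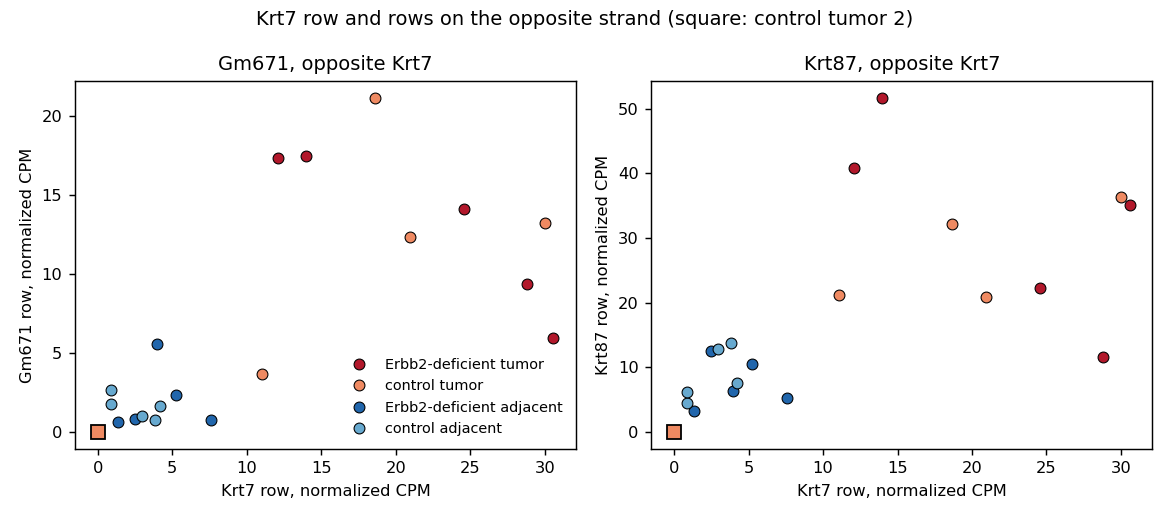
Normalized CPM of the Gm671 row (left) and the Krt87 row (right) against that of the Krt7 row in the 20 libraries, colored by group, with control tumor 2 as a square. Tumors other than control tumor 2 lie to the right of all adjacent libraries, at 11.04 to 30.6 CPM of Krt7, and control tumor 2 lies at 0 on both axes.

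The Krt23 row was higher in tumors of both genotypes at the lowest counts of the 4. In Erbb2-deficient tumors 1 to 5 it stood at 18.1, 13.4, 8.38, 24.6 and 2.88 CPM (24, 18, 12, 33 and 4 counts), against 1.75, 0.831, 4.76, 5.30 and 2.65 CPM (3, 1, 6, 7 and 4 counts) in Erbb2-deficient adjacent tissue. Tumor 5 lay within the range of the adjacent libraries and the other 4 tumors above it. In control tumors it stood at 7.68, 0, 1.84, 9.52 and 5.93 CPM (11, 0, 2, 10 and 7 counts), against 0.987, 0, 0.765, 0 and 0 CPM (1, 0, 1, 0 and 0 counts) in control adjacent tissue. All control tumors except control tumor 2 were above the control adjacent libraries, which held 2 counts in all.

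The log2 fold change of Krt23 was 2.12 ± 0.64 SE in Erbb2-deficient mice (edgeR adjusted p = 0.0183, higher in 4 of 5 tumors than in any adjacent library). The call was lost without Erbb2-deficient tumor 4, where the log2 fold change was 1.81 ± 0.67 SE (edgeR adjusted p = 0.0583), and held in the other 27 of 28 alternatives, which gave adjusted p down to 0.00213. In control mice the row was also called (edgeR adjusted p = 0.0151, higher in 4 of 5 tumors), and in 28 of 28 alternatives (adjusted p of 0.000900 to 0.0391). Because the adjacent libraries held 2 counts against 30 in control tumors, the ratio was 14.7 with a 95% counting interval of 3.74 to 127 (exact binomial, covering counting error only). With no count filter Krt23 was called in Erbb2-deficient mice (edgeR adjusted p = 0.00546) and in control mice (edgeR adjusted p = 0.00244). By mean level Erbb2-deficient tumors came first (13.5 ± 8.41 CPM), then control tumors (4.99 ± 3.98 CPM, or 6.24 ± 3.28 CPM without control tumor 2), Erbb2-deficient adjacent tissue (3.06 ± 1.92 CPM) and control adjacent tissue (0.350 ± 0.486 CPM; SD, n = 5 each). Control tumors and Erbb2-deficient adjacent tissue, neighbours in this order, overlapped and were not compared by a test.

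The Clu row varied widely among libraries of 1 group. In Erbb2-deficient tumors 1 to 5 it stood at 10.6, 34.3, 3.49, 22.3 and 15.9 CPM (14, 46, 5, 30 and 22 counts), against 9.89, 3.32, 23.8, 0.757 and 4.63 CPM (17, 4, 30, 1 and 7 counts) in Erbb2-deficient adjacent tissue. The groups overlapped, with 1 tumor above all adjacent libraries, and the log2 fold change of 1.02 ± 0.70 SE did not pass (edgeR adjusted p = 0.294). In control tumors it stood at 23.7, 27.2, 1.84, 10.5 and 11.9 CPM (34, 30, 2, 11 and 14 counts), against 5.92, 2.52, 0, 2.69 and 3.56 CPM (6, 3, 0, 3 and 4 counts) in control adjacent tissue. Control tumor 3 lay within the adjacent range and the other 4 tumors above it.

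In control mice Clu passed, at 2.37 ± 0.82 SE on the log2 scale (edgeR adjusted p = 0.0427, higher in 4 of 5 tumors than in any adjacent library). Control tumor 2, with few pan-epithelial counts, was the highest of the control tumors in this row. Without control tumor 2 the log2 fold change was 2.05 ± 0.84 SE and the call was lost (edgeR adjusted p = 0.0752). The call held in 18 of 29 alternatives (adjusted p of 0.0142 to 0.124). It was also lost without Erbb2-deficient tumor 4 (0.0503), control tumor 1 (0.0887), 4 (0.0524) or 5 (0.0552), or control adjacent 2 (0.0792), 3 (0.0919), 4 (0.0749) or 5 (0.0727), and with no count filter (0.124). The mean levels were 17.3 ± 11.8 CPM in Erbb2-deficient tumors, 15.03 ± 10.4 CPM in control tumors (12.0 ± 9.0 CPM without control tumor 2), 8.48 ± 9.19 CPM in Erbb2-deficient adjacent tissue and 2.94 ± 2.13 CPM in control adjacent tissue (SD, n = 5 each). Of neighbours in this order, the 2 kinds of tumor and the 2 kinds of adjacent tissue did not pass, and control tumors were not tested against Erbb2-deficient adjacent tissue.

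The S100a6 row passed in neither comparison of tissues. In Erbb2-deficient tumors 1 to 5 it stood at 21.9, 49.2, 11.9, 23.8 and 17.3 CPM (29, 66, 17, 32 and 24 counts), against 39.0, 31.6, 22.2, 16.6 and 6.62 CPM (67, 38, 28, 22 and 10 counts) in Erbb2-deficient adjacent tissue. In control tumors it stood at 25.1, 0, 23.9, 8.57 and 6.78 CPM (36, 0, 26, 9 and 8 counts), against 20.7, 9.24, 12.2, 8.96 and 8.90 CPM (21, 11, 16, 10 and 10 counts) in control adjacent tissue. Tumors and adjacent tissue overlapped throughout in both genotypes, with control tumor 2 at 0.

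The log2 fold change of S100a6 was 0.09 ± 0.58 SE in Erbb2-deficient mice (edgeR adjusted p = 0.925, 95% interval -1.05 to 1.24) and 0.12 ± 0.62 SE in control mice (edgeR adjusted p = 0.915, 95% interval -1.10 to 1.34). These intervals include changes of more than 2-fold in either direction. The value in Erbb2-deficient mice turned to -0.28 without Erbb2-deficient tumor 2 and to -0.13 without Erbb2-deficient adjacent 5. The value in control mice turned to -0.28 without control tumor 1 and to -0.21 without control tumor 3. By mean level the order was by genotype, with 24.8 ± 14.4 CPM in Erbb2-deficient tumors, 23.2 ± 12.6 CPM in Erbb2-deficient adjacent tissue, 12.9 ± 11.1 CPM in control tumors (16.1 ± 9.77 CPM without control tumor 2) and 12.0 ± 5.07 CPM in control adjacent tissue (SD, n = 5 each). No pair of neighbours that was tested in this order passed.

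The comparisons of Erbb2-deficient with control mice asked whether the level of a row differs with genotype within a tissue. Of the 4 rows 0 passed in tumors and 0 in adjacent tissue, and edgeR called 0% of all 7119 rows in both comparisons. At an unadjusted p under 0.05 there were 817 rows in tumors (11.5%) and 418 in adjacent tissue (5.87%), and DESeq2 called 26 and 4 rows. The fitted log2 fold changes of all 4 rows were above 0 in both tissues, with medians of 0.68 in tumors and 1.25 in adjacent tissue against -0.01 and 0.01 over all rows. The signs in tumors did not all hold, since Clu turned without Erbb2-deficient tumor 2 (-0.22) or control tumor 3 (-0.066), and Krt7 without control tumors 2 and 3 together (-0.040).

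Krt23 had the smallest genotype p of the 4. Between tumors of the genotypes it differed by 1.40 ± 0.62 SE on the log2 scale (unadjusted p = 0.0343, edgeR adjusted p = 0.393), with 3 of 5 Erbb2-deficient tumors above all control tumors. Krt23 met the count filter in 4 Erbb2-deficient tumors and 1 control tumor. The filter thus pushes this tumor value upward, and nothing is read from it. In adjacent tissue the difference was 2.81 ± 1.04 SE (unadjusted p = 0.0137, edgeR adjusted p = 0.728), with 4 of 5 Erbb2-deficient libraries above all control ones. The adjacent difference rests on 21 counts in Erbb2-deficient and 2 counts in control libraries, a ratio of 8.61 with a 95% counting interval of 2.10 to 75.7. It passed in 0 of 27 alternatives, and the tumor difference in 0 of 29.

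For Krt7 the genotype difference was 0.43 on the log2 scale in tumors (edgeR adjusted p = 0.836, 95% interval -0.67 to 1.53) and 0.65 in adjacent tissue (edgeR adjusted p = 0.947, 95% interval -0.79 to 2.10). For Clu it was 0.19 in tumors (edgeR adjusted p = 0.952, 95% interval -1.15 to 1.53) and 1.54 in adjacent tissue (edgeR adjusted p = 0.883, 95% interval -0.10 to 3.17). For S100a6 it was 0.93 in tumors (edgeR adjusted p = 0.601, 95% interval -0.26 to 2.11) and 0.95 in adjacent tissue (edgeR adjusted p = 0.894, 95% interval -0.24 to 2.15). Pan-epithelial rows stood beside these values in the same direction. Of the 12 that were tested, 12 had a log2 fold change above 0 between genotypes in tumors (median 0.58) and 11 in adjacent tissue (median 0.44), with 0 passing in either. The tumor values include control tumor 2, in which 13 of the 15 listed pan-epithelial rows were at 0 counts. The Krt7, Krt23 and S100a6 rows were at 0 in that library too. Whether the 12 pan-epithelial rows keep their direction in tumors without control tumor 2 was not tested. The part of the pan-epithelial rows in the genotype values of the 4 rows was not tested either. Whether the tumor difference depended on genotype was asked by the interaction, which passed for 0 of the 4 rows and 0% of all rows (290 rows, 4.07%, at an unadjusted p under 0.05). The interaction log2 value was -0.22 ± 0.88 SE for Krt7, -1.41 ± 1.18 SE for Krt23, -1.35 ± 1.07 SE for Clu and -0.03 ± 0.84 SE for S100a6, with an edgeR adjusted p of 0.99998 for each.

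**Figure D3:**
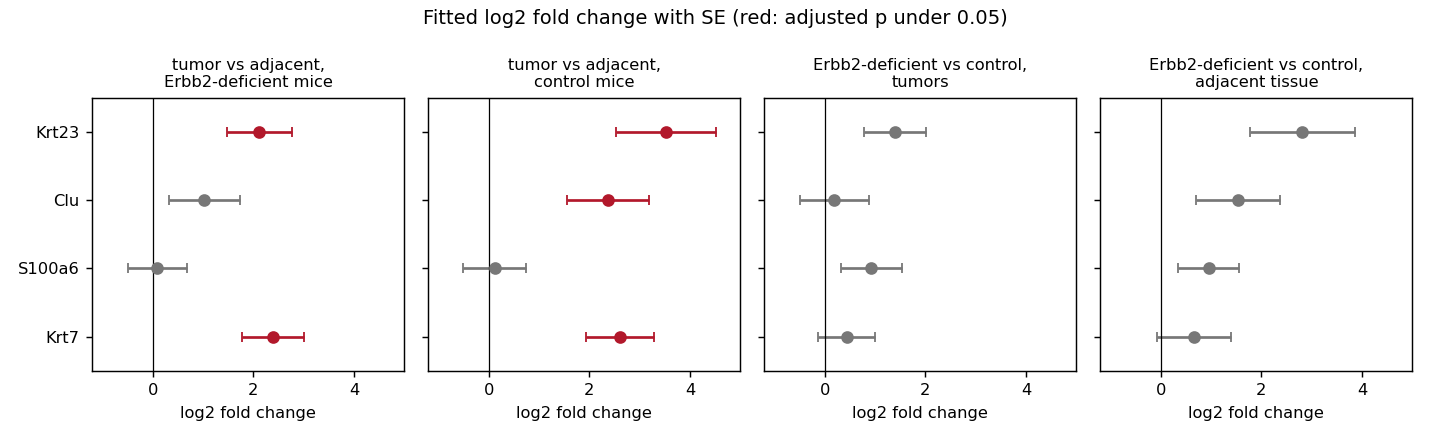
Fitted log2 fold change with its SE (horizontal axis) of the 4 rows in the comparisons of tumor with adjacent tissue and of Erbb2-deficient with control mice, in red where the adjusted p was under 0.05. Krt7 and Krt23 are red in both comparisons of tissues and Clu in control mice, and 0 of the 8 genotype values are red.

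Among the 10 tumors, the 4 rows varied together to different degrees, and control tumor 2 set much of this. The Pearson r of log2 CPM between S100a6 and Krt7 was 0.832 over 10 tumors and 0.284 over the 9 without control tumor 2. Between Clu and Krt7 it was 0.02 over 10 tumors and 0.869 over 9. Between Krt23 and Krt7 it was 0.680 over 10 tumors, 0.172 over 9 and 0.563 over the 10 adjacent libraries. These values are descriptions over libraries that mix the genotypes and share low counts.

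The rows most like each gene were those of highest Pearson r of log2 CPM over the 20 libraries, which include the difference between tumor and adjacent tissue. The 20 also include control tumor 2, which set much of the r among the 4 rows in tumors. No likeness without control tumor 2 is given, and its part in these r values was not tested. For Krt7 they were Lifr, a cytokine receptor of the interleukin 6 family (0.918), Ly6k (0.908, opposite Gm17189), Pmepa1, an inhibitor of TGF-beta signaling (0.903), Dlgap1 (0.902, opposite AC079441.1) and the spermine oxidase Smox (0.900). For Krt23 they were the chaperone Hsp90ab1 (0.900), the cohesin subunit Smc3 (0.886), the chromatin remodeler Smarca4 (0.873), Nolc1 (0.867) and Rangap1 (0.867, opposite Zc3h7b). For Clu they were Ly6e (0.874), a member of the fetal-like list, the nucleolar protein Npm1 (0.785), the ribosomal protein gene Rps15a (0.776), Tmem176b (0.767, opposite Tmem176a) and Gapvd1 (0.757). For S100a6 they were the epithelial transcription factor Elf3 (0.893, opposite Gm26642), the keratin Krt19 (0.869), the glycolytic enzyme gene Tpi1 (0.868, opposite Spsb2), S100a14 (0.868) and the glutamine synthetase gene Glul (0.867, opposite Teddm2). The rows most like S100a6 had log2 fold changes of -0.44 to 0.32 in Erbb2-deficient mice, against 1.76 to 3.59 for those most like Krt7.

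Other genes associated with the fetal-like and regenerative program were read from a list of 45 further rows. Of these 14 were tested, and the other 31 had too few counts. In Erbb2-deficient tumors 2 of the 14 rose, Basp1 and Phlda1, and 1 fell, Tubb6, where 27.5% of all rows were called. In control tumors 1 rose, Basp1, and 0 fell, where 21.6% of all rows were called. The median log2 fold change of the 14 was -0.17 in Erbb2-deficient mice and 0.08 in control mice, near the medians of all rows (-0.06 and 0.07). Between genotypes 0 of the 14 passed in either tissue.

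Basp1, a membrane-associated signaling protein first known from neurons, had the largest difference of the list. It averaged 368 ± 152 CPM in Erbb2-deficient tumors and 19.97 ± 6.42 CPM in Erbb2-deficient adjacent tissue (SD, n = 5 each), which was 4.21 ± 0.49 SE on the log2 scale (edgeR adjusted p = 1.17e-05). In control mice it averaged 321 ± 169 CPM in tumors and 30.0 ± 11.3 CPM in adjacent tissue (SD, n = 5 each), which was 3.42 ± 0.47 SE on the log2 scale (edgeR adjusted p = 6.37e-05). All tumors, control tumor 2 included, were above all adjacent libraries, since tumors held 60.7 CPM or more and adjacent tissue at most 44.8 CPM. In Erbb2-deficient mice 11.9% of all rows tested had every tumor above every adjacent library. The shares for control mice and for all 20 libraries are not given here. Phlda1 (opposite Gm28592) encodes a pleckstrin homology-like protein found in intestinal stem and regenerating cells. The Phlda1 row averaged 38.5 ± 12.7 CPM in Erbb2-deficient tumors and 12.5 ± 7.005 CPM in Erbb2-deficient adjacent tissue (edgeR adjusted p = 0.0170; SD, n = 5 each). In control mice Phlda1 did not pass, and was called in 0 of 30 alternatives (edgeR or DESeq2 adjusted p of 0.0672 to 0.702). Tubb6, a beta-tubulin, fell by 0.60 on the log2 scale, to 129 ± 21.7 CPM in Erbb2-deficient tumors against 196 ± 36.0 CPM in Erbb2-deficient adjacent tissue (edgeR adjusted p = 0.0318; SD, n = 5 each). The calls of Basp1 in both genotypes and of Phlda1 in Erbb2-deficient mice held in 30 of 30 alternatives. The Tubb6 call in Erbb2-deficient mice held in 20 of 30 (adjusted p of 0.0101 to 0.228). It was lost without Erbb2-deficient tumor 1, 2, 3 or 4 or without Erbb2-deficient adjacent 2 or 4, among others. In control mice Tubb6 did not pass, and was called in 3 of 30 alternatives.

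The counts for this list depended on control tumor 2 and on the filter. Without control tumor 2, 8 of 18 tested rows were called higher and 1 lower in Erbb2-deficient tumors (36.2% of all rows called, 16.9% called higher). In control tumors 5 of 18 then rose and 0 fell (26.5% of all rows called, 12.9% called higher). The 5 were Anxa2 (opposite Gm16144), Basp1, Cldn4, Mmp7 (opposite AV064505) and Sox9, and the 8 included these, Ly6e and Phlda1. Without control tumor 3, 6 of 17 tested rows were called higher and 1 lower in Erbb2-deficient tumors (29.2% of all rows called, 15% called higher). In control tumors 4 were then called higher and 4 lower (28.3% of all rows called, 13.7% called higher). The 4 lower rows were Ceacam1, Krt20, Tnfrsf12a and Tubb6. Without 1 of the other libraries, 2 to 6 rows were called in Erbb2-deficient tumors (21.1% to 27.8% of all rows called), with 5 or 6 without Erbb2-deficient tumor 5, Erbb2-deficient adjacent 1, 3 or 5, control tumor 4 or any control adjacent library. In control tumors 2 rows were then called without Erbb2-deficient tumor 1, 2 or 3, control tumor 4 or any adjacent library (15.8% to 21.5% of all rows called over the 18 libraries). With no count filter, 10 of 44 rows rose and 0 fell in Erbb2-deficient tumors (8.35% of all rows called, 4.06% called higher). In control tumors 5 then rose and 0 fell (5.46% of all rows called, 2.29% called higher). The 5 were Basp1, Mmp7, Mmp10, Reg3g and Spp1, and the 10 included these, Cldn4, Ly6e and Phlda1.

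**Figure D4:**
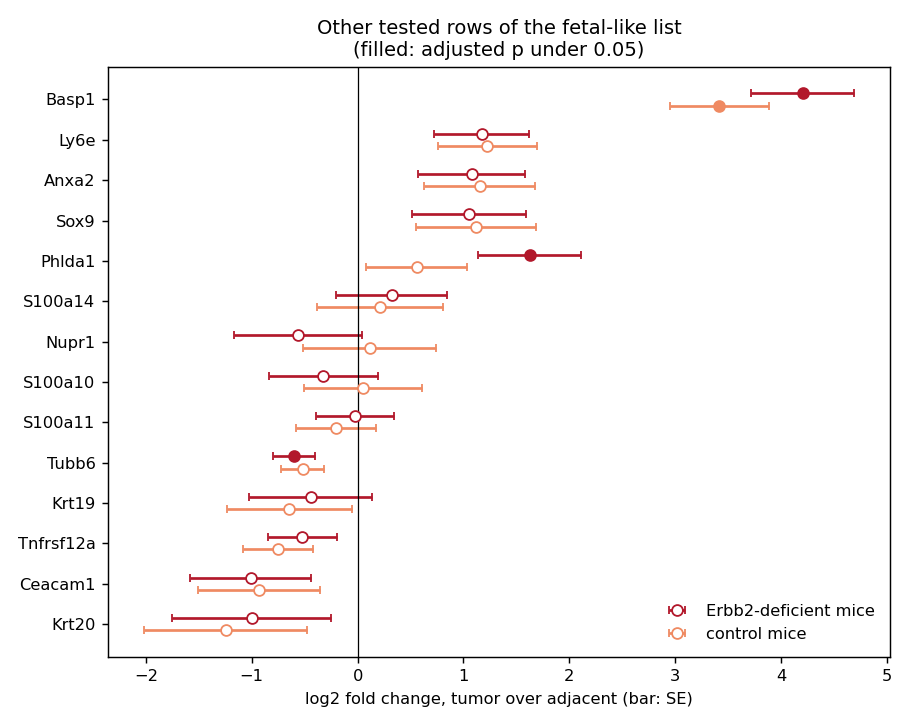
Log2 fold change of tumor over adjacent tissue with its SE (horizontal axis) for the 14 tested rows of the fetal-like list, in Erbb2-deficient and control mice, with filled points where the adjusted p was under 0.05. Basp1 lies apart from the others at 4.21 and 3.42, and 8 of the 14 rows lie below 0 in Erbb2-deficient mice.

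Several rows below the filter were at 0 counts in every adjacent library. These were picked after their values were seen, so their direction follows from the choice. The row of Mmp7, a matrix metalloprotease, held 78 counts in Erbb2-deficient tumors and 32 in control tumors, at least 26.7-fold and 10.5-fold higher than the floor of 3 counts over the adjacent group. It lies opposite AV064505, whose row had far more counts. That row averaged 5501 ± 4157 CPM in Erbb2-deficient tumors and 3.37 ± 2.28 CPM in Erbb2-deficient adjacent tissue (edgeR adjusted p = 1.31e-05; SD, n = 5 each). In control mice it averaged 4525 ± 3270 CPM in tumors and 7.54 ± 6.50 CPM in adjacent tissue (edgeR adjusted p = 3.40e-05; SD, n = 5 each). Which of the 2 genes the reads in either row come from was not tested. The row of Spp1, which encodes the secreted protein osteopontin, was at least 13.4-fold higher in Erbb2-deficient tumors and 6.88-fold in control tumors. The row of Mmp10, another matrix metalloprotease, was at least 10.96-fold and 4.26-fold higher. The row of Reg3b, an antimicrobial lectin, held 15 counts in Erbb2-deficient tumors and 52 in control tumors, at least 5.14-fold and 17.0-fold higher. These floors pool the libraries of a group and cover counting error only. In the edgeR test with no count filter, Mmp7, Spp1 and Mmp10 were called in both genotypes, and Reg3b in neither. Other rows of the list went the other way. Anxa3 held 20 counts in Erbb2-deficient tumors against 42 in their adjacent group, and 5 in control tumors against 16. Il1rn held 10 against 16 and 2 against 4 in the same order. Ly6a held 22 against 31 in Erbb2-deficient mice and 22 against 15 in control mice. The squamous differentiation genes Ly6d and Sprr1a of the list were at means of 2.50 CPM or less in all 4 groups.

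Of the related keratin and S100 families, few rows had enough counts to be tested. Of 21 other keratin rows 5 were tested, and 0 passed in either genotype (27.5% and 21.6% of all rows called). Of these 5, 1 had a log2 fold change above 0 in each genotype, with medians of -0.44 in Erbb2-deficient mice and -0.65 in control mice. Krt18, the type I keratin of simple epithelia, averaged 61.1 ± 18.1 CPM in Erbb2-deficient tumors and 21.4 ± 9.62 CPM in Erbb2-deficient adjacent tissue (edgeR adjusted p = 0.0528; SD, n = 5 each). Its partner Krt8 (opposite Gm36026) averaged 98.2 ± 33.9 CPM in Erbb2-deficient tumors and 143 ± 44.2 CPM in Erbb2-deficient adjacent tissue (edgeR adjusted p = 0.491; SD, n = 5 each). Some other keratin rows below the filter, picked after their values were seen, were higher in tumors by counts. Others were not, such as Krt78, with 1 count in Erbb2-deficient tumors and 4 in Erbb2-deficient adjacent tissue, and 0 in control tumors and 4 in control adjacent tissue. Krt36, a type I keratin, held 69 counts in Erbb2-deficient tumors and 2 in Erbb2-deficient adjacent tissue, a ratio of 35.4 with a 95% counting interval of 9.45 to 299, and 14 counts in control tumors and 1 in control adjacent tissue, a ratio of 13.8 with an interval of 2.09 to 582. Krt14, a type I keratin of basal cells, held 34 counts in Erbb2-deficient tumors and 4 in Erbb2-deficient adjacent tissue, and 14 in control tumors and 0 in control adjacent tissue, at least 4.59-fold higher than the floor. Krt13, a type I keratin of stratified epithelia, held 11 counts in Erbb2-deficient tumors and 0 in Erbb2-deficient adjacent tissue, at least 3.77-fold higher than the floor. These intervals and floors cover counting error only. Of 17 other S100 rows 6 were tested, and S100a1 fell in Erbb2-deficient tumors (14.7 ± 3.06 CPM, against 25.2 ± 4.99 CPM in Erbb2-deficient adjacent tissue, edgeR adjusted p = 0.0399; SD, n = 5 each). That call held in 12 of 30 alternatives (adjusted p of 0.0236 to 0.251) and was lost without any 1 of 13 libraries, namely Erbb2-deficient tumors 1 to 4, Erbb2-deficient adjacent 1, 2, 3 and 5, control tumors 1, 3 and 5, and control adjacent 2 and 4. In control mice 0 of the 6 passed. Over all rows, 27.5% were called in Erbb2-deficient tumors, with 14.5% called lower, and 21.6% were called in control tumors.

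Of 30 rows of YAP and TEAD genes and their targets 4 were tested, where 27.5% of all rows were called in Erbb2-deficient tumors and 21.6% in control tumors. In GENCODE M21, 3 of these 4 genes had an exon overlapped by an exon on the opposite strand. Rbms3, an RNA-binding protein, rose in Erbb2-deficient tumors (22.7 ± 9.22 CPM, against 3.74 ± 1.959 CPM in Erbb2-deficient adjacent tissue, edgeR adjusted p = 0.000687; SD, n = 5 each). In control mice Rbms3 did not pass, and was called in 8 of 29 alternatives (edgeR or DESeq2 adjusted p of 0.000927 to 0.189). The matricellular protein gene Ccn2 (opposite Gm15270), a YAP target, fell in control tumors (6.60 ± 3.04 CPM, against 21.8 ± 7.45 CPM in control adjacent tissue, edgeR adjusted p = 0.00312; SD, n = 5 each). In Erbb2-deficient mice Ccn2 did not pass, and was called in 0 of 30 alternatives (edgeR or DESeq2 adjusted p of 0.320 to 0.864). Of 22 crypt stem and progenitor rows 9 were tested, of which 2 rose and 1 fell in Erbb2-deficient tumors and 2 rose in control tumors, beside the same shares of all rows. Such an opposite exon was found for 4 of the 9. The rows of the Wnt feedback genes Rnf43 and Axin2 (opposite Gm11670) rose in tumors of both genotypes. Axin2 rose to 39.6 ± 9.91 CPM in Erbb2-deficient tumors against 2.52 ± 1.82 CPM in Erbb2-deficient adjacent tissue (SD, n = 5 each). The Rnf43 call in Erbb2-deficient mice was lost without Erbb2-deficient tumor 2 or 3 or Erbb2-deficient adjacent 4 or 5 (adjusted p of up to 0.0669). Rgmb, a BMP co-receptor, fell in Erbb2-deficient tumors (1.77 ± 2.08 CPM, against 11.04 ± 3.597 CPM in Erbb2-deficient adjacent tissue, edgeR adjusted p = 0.00512; SD, n = 5 each). In control mice Rgmb did not pass, and was called in 0 of 28 alternatives (edgeR or DESeq2 adjusted p of 0.287 to 0.669). A pass in 1 genotype alone does not show a genotype difference, and the interaction passed for 0% of all rows.

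Markers of the cell types that a tumor or adjacent sample can hold stood beside these differences as follows. The summed level of 15 pan-epithelial rows was 433 to 815 CPM in Erbb2-deficient tumors and 17.2 to 648 CPM in control tumors (324 CPM or more without control tumor 2), against 441 to 916 CPM in Erbb2-deficient adjacent tissue and 414 to 619 CPM in control adjacent tissue. Of its 12 tested rows Cdx1 fell in tumors of both genotypes, Lgals4 fell in Erbb2-deficient tumors, and 0 rose, where 14.5% of all rows were called lower in Erbb2-deficient tumors and 10.9% in control tumors. The Cdx1 call in control mice held in 23 of 30 alternatives (adjusted p of up to 0.118) and was lost without control tumor 1, 4 or 5 or control adjacent 1 or 3. The Lgals4 call held in 20 of 30 (adjusted p of up to 0.137) and was lost without Erbb2-deficient tumor 1, 2, 3 or 5 or Erbb2-deficient adjacent 1, 2 or 3. In control mice Lgals4 did not pass, and was called in 3 of 30 alternatives (edgeR or DESeq2 adjusted p of 0.00150 to 0.247). The summed level of 15 smooth muscle rows was 235 to 314 CPM in Erbb2-deficient tumors and 172 to 572 CPM in control tumors, against 1248 to 1593 CPM in Erbb2-deficient adjacent tissue and 1281 to 2830 CPM in control adjacent tissue. Of 15 tested smooth muscle rows 12 fell in Erbb2-deficient tumors and 14 in control tumors, against the same 14.5% and 10.9% of all rows, so the adjacent samples, labelled as epithelium, held more muscle signal.

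Markers of mature epithelial cells were lower in tumors. Of 8 tested absorptive colonocyte rows 7 fell in Erbb2-deficient tumors (median log2 fold change -3.08), and 6 fell and 1 rose in control tumors (median -2.80), against 14.5% and 10.9% of all rows called lower. In sum, the 14 colonocyte rows stood at 116 to 261 CPM in Erbb2-deficient tumors and 136 to 315 CPM in control tumors, against 433 to 1102 CPM in Erbb2-deficient adjacent tissue and 289 to 546 CPM in control adjacent tissue. Of 8 tested goblet cell rows 5 fell in Erbb2-deficient tumors (median -2.01) and 3 in control tumors (median -1.80), and 0 rose. All 12 goblet cell rows together stood at 32.8 to 374 CPM in Erbb2-deficient tumors and 2.72 to 630 CPM in control tumors, against 499 to 947 CPM in Erbb2-deficient adjacent tissue and 199 to 804 CPM in control adjacent tissue. Car4, a carbonic anhydrase of colonocytes, and Clca1, a secreted goblet cell protein, fell in both genotypes.

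Fibroblast and matrix rows were higher in Erbb2-deficient tumors. Of 6 tested rows 4 rose in Erbb2-deficient tumors (median log2 fold change 1.83) and 1, Vim, in control tumors (median 0.60), against 13% and 10.7% of all rows called higher. Vim, which encodes the intermediate filament protein of mesenchymal cells, rose in both genotypes. Together the 13 listed rows stood at 85.7 to 260 CPM in Erbb2-deficient tumors and 72.0 to 135 CPM in control tumors, against 26.5 to 96.0 CPM in Erbb2-deficient adjacent tissue and 28.7 to 171 CPM in control adjacent tissue. The calls of Car4, Clca1 and Vim held in every alternative that tested them. The part of these marker differences in the tumor values of the 4 rows was not tested.

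Marker rows of other keratin-rich epithelia had few counts. Of 15 squamous and anal transition rows 0 were tested. Krt5, Krt6a, Krt4, Trp63 and Sprr3 were at 0 in all 20 libraries, while Krt14 averaged 5.003 ± 3.08 CPM in Erbb2-deficient tumors and 0.535 ± 0.743 CPM in Erbb2-deficient adjacent tissue (SD, n = 5 each). That list summed to 9.37 to 23.8 CPM in Erbb2-deficient tumors and 8.47 to 20.9 CPM in control tumors (8.47 to 11.4 CPM without control tumor 2), against 2.65 to 16.7 CPM in Erbb2-deficient adjacent tissue and 0.840 to 15.1 CPM in control adjacent tissue. In Erbb2-deficient tumors this sum was similar in size to the level of the Krt23 row (2.88 to 24.6 CPM), and its part in the keratin values was not tested. Of 8 mesothelial rows Krt19 alone was tested, and Upk3b, Wt1, Muc16 and Gpm6a were at 0 in all 20 libraries.

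**Figure D5:**
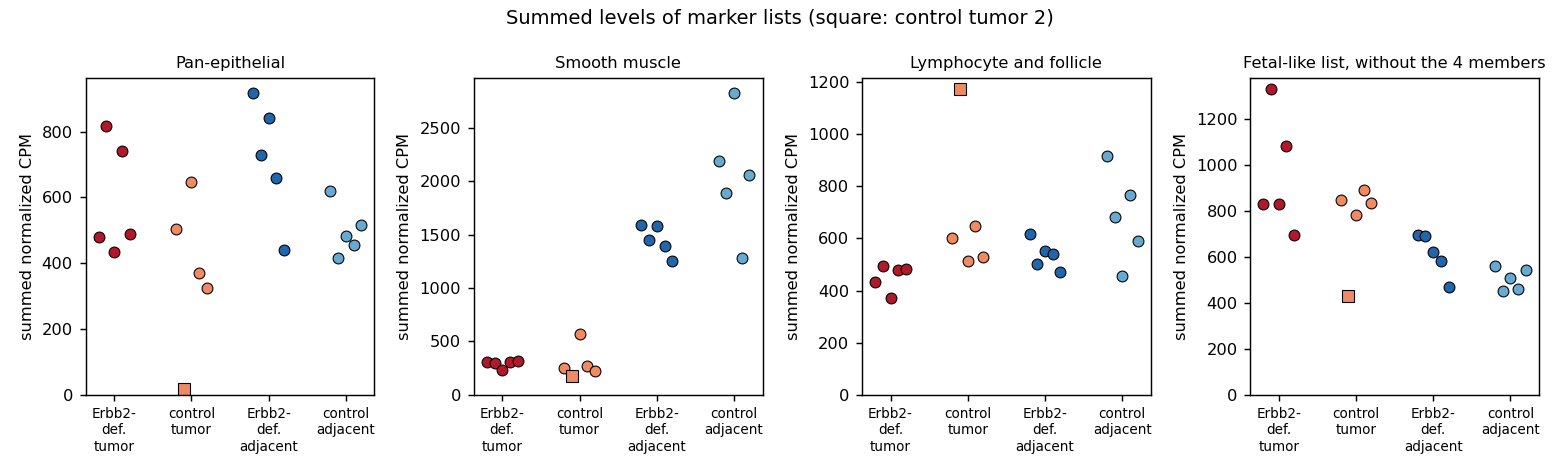
Summed normalized CPM (vertical axes) of the pan-epithelial, smooth muscle, and lymphocyte and follicle marker lists and of the 45 fetal-like rows in each library by group, with control tumor 2 as a square. Smooth muscle signal lies at 172 to 572 CPM in tumors and at 1248 CPM or more in adjacent tissue, and control tumor 2 is lowest in pan-epithelial signal (17.2 CPM) and highest in lymphocyte signal (1175 CPM).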

How the data were processed

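RNA-seq libraries of colorectal tumor and adjacent tissue were grouped by the genotype, tissue and replicate number in the labels (4 groups of 5). Per the labels' protocols, RNA was extracted with a Maxwell simplyRNA kit and libraries were made with the TruSeq Stranded mRNA kit. Each library has a file of raw read counts by gene symbol, as the authors deposited it. Build mm39, the aligner HISAT2 (version 2.2.1), the counter HTSeq (version 2.0.2), Trimmomatic and DESeq2 are named in the submitters' processing notes, and the strand setting of the counting is not given in the sources used here. The 5 summary rows of each file, with 78.6% to 85.1% of the reads in the row of reads on no feature, were left out.

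Rows were filtered with filterByExpr (minimum count 10), scaled with TMM factors and tested with edgeR (version 4.0.16, under R 4.3.3), in a means model of the 4 groups with robust quasi-likelihood F tests over all 20 libraries, and p-values were adjusted by Benjamini-Hochberg over 7119 rows. The standard error is the log2 fold change divided by the square root of F, and a 95% interval is 1.96 standard errors on either side. Correlations used log2 CPM with a prior count of 2. The tests were tried on simulated counts. GENCODE M21 gave only names and opposite-strand neighbours, and RefSeq (GRCm38.p6) the promoters, so those coordinates are of another build than the counts. The alternatives were other scalings, filters of 5, 20 or none, DESeq2 version 1.42.0, the compared groups alone, a replicate block, mitochondrial rows left out, and each library left out.

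The members and lists were chosen with earlier results of these data known. All 4 members were named, with listed rows past the threshold or, per list and comparison, the 4 of smallest p, and the 5 tested rows most correlated with each member, skipping Gm and Rik symbols. No label states which libraries share a mouse, and p-values thus reflect the variation from library to library, which may be technical in part. Equal replicate numbers were not taken as pairs, because the correlation of tumor and adjacent deviations was above 0.1 in some numbers and below 0 in others. Some rows of the lists are counted but not reported by name here.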

Additional observations from a re-analysis of the deposited data

Results flagged for a closer look

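In control adjacent tissue, library 1 stood apart in the S100a6 row, at 20.7 CPM against 12.2 CPM for the next library. Control tumor 2 stood apart in the summed level of the 45 fetal-like rows, at 429 CPM against 781 CPM for the next control tumor. It was the library with 0 counts in Krt7, Krt23 and S100a6. These were the 2 of 20 groups of values examined in which 1 library lay apart from the other 4 by Dixon's test, and chance alone marks about 1 in 20.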

How the results depend on the processing

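The tumor values of Krt7 and Krt23 kept their direction in every alternative that tested them, and leaving out 1 library gave log2 fold changes of 1.81 to 2.40 for Krt23 in Erbb2-deficient mice and of 2.04 to 2.78 for Clu in control mice. Clu in control mice was 2.30 with no count filter and no longer called. S100a6 moved between -0.28 and 0.39 in Erbb2-deficient mice and between -0.28 and 0.43 in control mice as libraries were left out, so that its sign turned. Of the genotype values in tumors, Clu ran from -0.22 to 0.51 as libraries were left out, and Krt7 was -0.040 without control tumors 2 and 3.

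With a replicate block, Clu (2.32) and Krt7 (2.32) in control mice were no longer called (edgeR adjusted p = 0.0765 and 0.0614), and S100a6 in control mice turned to -0.21. Axin2 in control mice was lost too (edgeR adjusted p = 0.0715). The same block gave interaction values of 0.34 for S100a6 and 0.047 for Krt7. Labels do not state that equal numbers mark 1 mouse. Correlations of deviations at equal numbers ran from -0.02 to 0.23 in Erbb2-deficient and from -0.12 to 0.37 in control mice, and 1 of 5 and 3 of 5 tumors were closest to their own number.

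The interaction value of S100a6 turned with library totals (0.056), a minimum count of 5 (0.058), DESeq2 (0.00407) and library sizes without mitochondrial rows (0.026), and ran from -0.40 to 0.40 as libraries were left out, and that of Krt7 from -0.50 to 0.17.

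Fetal-like rows called in Erbb2-deficient tumors, 3 in all, were 10 with no filter, 6 at a minimum count of 5, 6 with the compared groups alone and 9 without control tumors 2 and 3, and 2 to 9 as libraries were left out. In control tumors, 1 became 2 with library totals, 5 with no filter, 2 at a minimum count of 5, 2 at 20, 3 in DESeq2, 8 without control tumors 2 and 3, and 1 to 8 as libraries were left out. Rows called over the table were 2939 in Erbb2-deficient and 2544 in control mice without control tumors 2 and 3, and 593 in control mice with the control groups alone. Between genotypes 26 rows were called in tumors by DESeq2, and in adjacent tissue 4 by DESeq2, 1 with no filter, 1 without control tumors 2 and 3, and 0 to 2 as libraries were left out. The cause of these shifts was not tested. The 16 member levels from library totals were 0.879 to 1.09 times those reported. Low counts limit all values of the 4 rows. No permutation test was run, as it was planned for members below the filter and all 4 passed.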
